A study of Homo sapiens with 8 samples.

Results

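The cytosolic ribosomal protein genes were taken from a whole-transcript array study of SK-N-MC cells, a line established from Ewing sarcoma, a tumour of bone and soft tissue. Members were chosen among transcript clusters, the sets of probes that the array design assigns to a locus. The only platform gene symbol had to be that of a ribosomal protein of the large subunit (RPL, RPLP) or the small subunit (RPS). After its number the symbol could hold at most 1 letter and 1 digit, which left out numbered pseudogenes and also RPL36AL. A gene with several such clusters was represented by the brightest on average across the 8 arrays. This gave 54 genes of 22411 tested, 33 of the large and 21 of the small subunit, and 7 of the 54 were paralogues with symbols ending in L or L1. Cells received a mix of YAP1 and TAZ siRNAs (4 cultures) or a non-targeting control siRNA (4 cultures), each at 10 nM, and RNA was collected after 72 h. Per the series' design text the cultures of each transfection were handled in parallel, so their spread does not cover separate experiments. The comparison holds 1 cell line, and knockdown of YAP1 or TAZ alone was not analysed here. In bulk RNA, fewer cells of a kind and less RNA per cell cannot be told apart.

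A ribosome is built from a large subunit, which forms peptide bonds, and a small subunit, which reads the mRNA, and each carries its own set of proteins around ribosomal RNA. The mRNAs of these proteins are among the most abundant in growing cells, and most begin with a C followed by a run of pyrimidines, the TOP motif, through which mTOR and LARP1 control their translation. YAP1 and TAZ (gene WWTR1) are co-activators under the Hippo pathway that act through TEAD transcription factors. The comparison asks whether lowering both altered ribosomal protein mRNAs, and whether the subunits differed in this.

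The start sites of the members are shown because the pyrimidine run is the feature that the family shares and that the choice by symbol did not use. Of the 54 members, 47 had an entry among the RefSeq start sites (GRCh38.p14). RPL3L, RPL7, RPL8, RPL30, RPL37, RPL39L and RPS15A had none. The search was for a C followed by at least 5 C or T, beginning within 10 bases of the annotated start on the gene's own strand. Such a run was found in 38 of 47 members (80.9%), against 20.7% of the 15374 tested genes with an entry. It began exactly at the annotated start in 31 members (66.0%), against 3.33% of those genes. Each line below gives 30 bases, 10 before the start and 20 from it onward, with the run in capitals. A line without capitals had no run that began within 10 bases of the start. A run that begins later, as in RPL27, is not marked or counted.
RPS16: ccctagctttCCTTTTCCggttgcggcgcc
RPS3: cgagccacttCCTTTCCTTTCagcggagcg
RPS24: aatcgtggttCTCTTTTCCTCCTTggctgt
RPS6: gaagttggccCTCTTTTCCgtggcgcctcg
RPL35: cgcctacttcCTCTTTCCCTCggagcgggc
RPL22: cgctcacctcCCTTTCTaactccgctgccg
RPL22L1: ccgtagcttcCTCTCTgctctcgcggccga
RPS27L: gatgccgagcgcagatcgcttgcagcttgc
RPL27: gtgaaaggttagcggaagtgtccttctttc
These windows lie at chr19:39435930-39435959 on the minus strand for RPS16, chr11:75399508-75399537 on the plus strand for RPS3 and chr10:78033853-78033882 on the plus strand for RPS24. Those of RPS6 and RPL35 lie at chr9:19380217-19380246 and chr9:124861938-124861967, both on the minus strand. RPL22 and RPL22L1 start on the minus strand at chr1:6199576-6199605 and chr3:170870176-170870205. The window of RPS27L is chr15:63157458-63157487 on the minus strand and that of RPL27 is chr17:42998409-42998438 on the plus strand. The run of RPS24, 14 bases long, was the longest of the 38. Among the paralogues with an entry, 1 of 5 held a run, namely RPL22L1, against 37 of 42 (88.1%) of the other members.

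In the 300 bases around each start (250 before and 50 after), the ETS core CCGGAAG stood on either strand in 16 of 47 members (34.0%), against 13.5% of the tested genes with an entry. The TEAD core GGAATG stood on either strand in 1 of 47 members, RPL38, against 12.2% of those genes. These are matches of letters only.

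The knockdown was visible on the arrays. On the log2 scale used for all values here, YAP1 read 6.27, 6.41, 6.42 and 6.40 in the YAP1/TAZ siRNA cultures, against 7.64, 7.72, 7.71 and 7.66 in the control siRNA cultures. The groups lay well apart, with a difference of −1.31 (SE 0.053, limma adjusted p = 4.73e-05). WWTR1 read 5.86 ± 0.080 after YAP1/TAZ siRNA and 6.48 ± 0.084 after control siRNA (SD, n = 4 each). It fell by 0.62 (limma adjusted p = 0.00898), a call that was lost with the replicate number as a block (limma adjusted p = 0.147) and without control siRNA replicate 1 (limma adjusted p = 0.0515). The SK-N-MC label was set against 14 measured Ewing sarcoma markers, all of which had a mean above the median of the genes tested (5.03). LIPI, a lipase used as a Ewing sarcoma marker, fell by 0.63 (limma adjusted p = 0.0136) and was the 1 gene of the lists named here that passed besides the targets. Most of that list went the other way, with 11 of 14 above 0, 3 below and a median difference of 0.11. By limma 5 of the 14 (35.7%) had an unadjusted p under 0.05, against 10.3% of all genes. Of the epithelial, blood and fibroblast markers 3 of 8, 1 of 5 and 6 of 8 had a mean above the median level of the genes tested, and 0 passed. An unadjusted limma p under 0.05 was found in 1 of 8, 1 of 5 and 3 of 8. Each share was above the 10.3% of all genes, so the Ewing sarcoma list was not alone in this. For the epithelial and blood markers it rests on 1 gene. The members of these lists with the smallest p were ESRP1 (−0.18) and GRHL2 (−0.095), HBB (−0.15) and CD68 (−0.068), and LUM (−0.54) and FAP (−0.16). Control siRNA replicate 4 and YAP1/TAZ siRNA replicate 2 stood apart from the other arrays, and values without them are given where they matter.

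No change of ribosomal protein mRNA was called after YAP1/TAZ siRNA. By limma 0 of 54 members passed an adjusted p under 0.05, where 0.214% of all genes did, and 0 of 54 had an unadjusted p under 0.05, where 10.3% of all genes did. In 0 of 54 members did the 4 YAP1/TAZ siRNA arrays lie wholly above or below the 4 control siRNA arrays, which 6.22% of all genes showed (4.19% with YAP1/TAZ siRNA higher and 2.03% with it lower). The differences ran from −0.13 for RPL35 to 0.20 for RPL39L, with 30 members above 0, 23 below and RPS27 at 0. The median difference was 0.020, against 0.0075 over all genes. The members' median was −0.026 after quantile normalization and −0.027 without control siRNA replicate 4, so its sign depends on both.

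The precision of these differences can be read from the confidence intervals. The 95% interval of the difference lay between −0.5 and 0.5, that is within a 1.41-fold change either way, in 52 of 54 members, against 87.8% of all genes. The exceptions were RPS16 (−0.43 to 0.51) and RPS18 (−0.47 to 0.56). Standard errors ran from 0.047 to 0.23, with a median of 0.076, close to the 0.078 of all genes. Signals on these arrays are summaries over many probes and can understate a change in transcript number, and ribosomal protein genes have many processed pseudogenes whose transcripts could reach the same probes. Neither was tested.

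**Figure D1:**
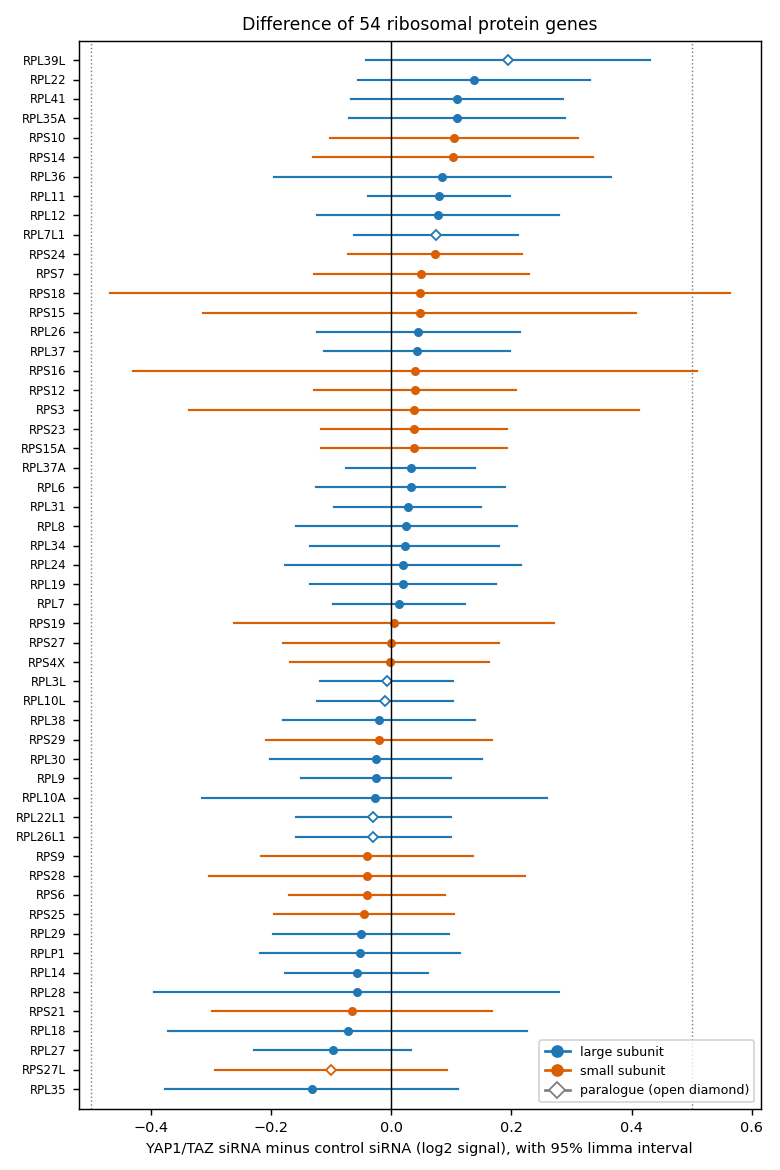
Difference in log2 signal (YAP1/TAZ siRNA minus control siRNA, x axis) for each of the 54 genes (y axis), with its 95% limma interval as a line; blue is the large subunit, orange the small, open diamonds are paralogues and dotted lines mark −0.5 and 0.5. Every interval crosses 0, and those of RPS16 and RPS18 reach past 0.5.

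In the large subunit, RPL27 had the smallest p of the downward differences. Its signal was 13.29, 13.46, 13.41 and 13.34 in the YAP1/TAZ siRNA cultures, against 13.45, 13.44, 13.56 and 13.44 in the control siRNA cultures. YAP1/TAZ siRNA replicate 2 lay within the control range and the other 3 below it. The difference was −0.098 (SE 0.057, 95% interval −0.23 to 0.032, limma adjusted p = 0.626), and mutations of this gene occur in Diamond-Blackfan anaemia, a failure of red cell production. RPL35, which sits at the exit of the peptide tunnel, read 14.14, 13.84, 14.26 and 14.21 after YAP1/TAZ siRNA and 14.36, 14.30, 14.29 and 14.03 after control siRNA. The lowest array of each group was the one that stood apart, and the groups overlapped. The difference was −0.13 (SE 0.11, adjusted p = 0.761). It was −0.042 without YAP1/TAZ siRNA replicate 2 and −0.20 without control siRNA replicate 4. RPL14, RPL18, RPL29 and RPLP1 differed by −0.058, −0.072, −0.050 and −0.052, each by less than its standard error or little more. RPLP1 is an acidic protein of the stalk that recruits elongation factors. RPL12, the other measured protein at the base of that stalk, differed by 0.078.

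Among the upward differences of the large subunit, RPL22, an RNA-binding protein often truncated in cancers with unstable microsatellites, read 10.36, 10.75, 10.61 and 10.49 in YAP1/TAZ siRNA cultures, against 10.44, 10.32, 10.47 and 10.43 in control siRNA cultures. Its highest value came from YAP1/TAZ siRNA replicate 2 and its second lowest from replicate 1 of that group. The difference was 0.14 (SE 0.085, adjusted p = 0.649), and 0.077 without the arrays that stood apart. RPL11, which with RPL5 and 5S ribosomal RNA binds MDM2 and so links ribosome assembly to p53, read 10.78, 10.73, 10.85 and 10.86 after YAP1/TAZ siRNA and 10.72, 10.69, 10.79 and 10.70 after control siRNA. The spread within each group reached into the other, and the difference was 0.080 (SE 0.052, 95% interval −0.038 to 0.20, adjusted p = 0.676). RPL5 had no cluster of its own symbol alone and was not analysed here. RPL41, among the smallest of human proteins, differed by 0.11 (SE 0.078, adjusted p = 0.716) and RPL35A, another Diamond-Blackfan anaemia gene, by 0.11 (SE 0.079, adjusted p = 0.722).

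In the small subunit, the extremes were closer to 0. RPS10 read 8.58, 8.43, 8.65 and 8.68 after YAP1/TAZ siRNA and 8.58, 8.56, 8.54 and 8.24 after control siRNA, a difference of 0.11 (SE 0.091, adjusted p = 0.784). Control siRNA replicate 4 was the lowest of the 8 arrays, and the groups overlapped. Without that array RPS10 differed by 0.025. RPS24 differed by 0.072 (SE 0.064, adjusted p = 0.788), RPS14 by 0.10 (SE 0.10) and RPS7 by 0.050 (SE 0.079). Without control siRNA replicate 4, RPS24, RPS14 and RPS7 differed by 0.023, 0.036 and −0.011. RPS14 is the gene whose loss on the long arm of chromosome 5 underlies the anaemia of 5q- syndrome. On the downward side RPS21 and RPS25 differed by −0.065 and −0.045. RPS6, the substrate of S6 kinase and a common readout of mTOR activity at the protein level, read 7.91, 7.90, 8.05 and 7.99 in YAP1/TAZ siRNA cultures, against 7.95, 7.96, 8.09 and 8.01 in control siRNA cultures. Its difference was −0.040 (SE 0.057, 95% interval −0.17 to 0.090, adjusted p = 0.893). The array reads mRNA and says nothing of RPS6 phosphorylation.

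The Diamond-Blackfan anaemia genes, 14 measured of 18 listed, had a median difference of 0.016, with 8 above 0, 5 below and 1 at 0. The median was −0.024 after quantile normalization and −0.010 without control siRNA replicate 4. By limma 0 of the 14 passed, adjusted or unadjusted, where 0.214% and 10.3% of all genes did. After quantile normalization 1 of the 14 (7.14%) had an unadjusted limma p under 0.05, against 11.3% of all genes.

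**Figure D2:**
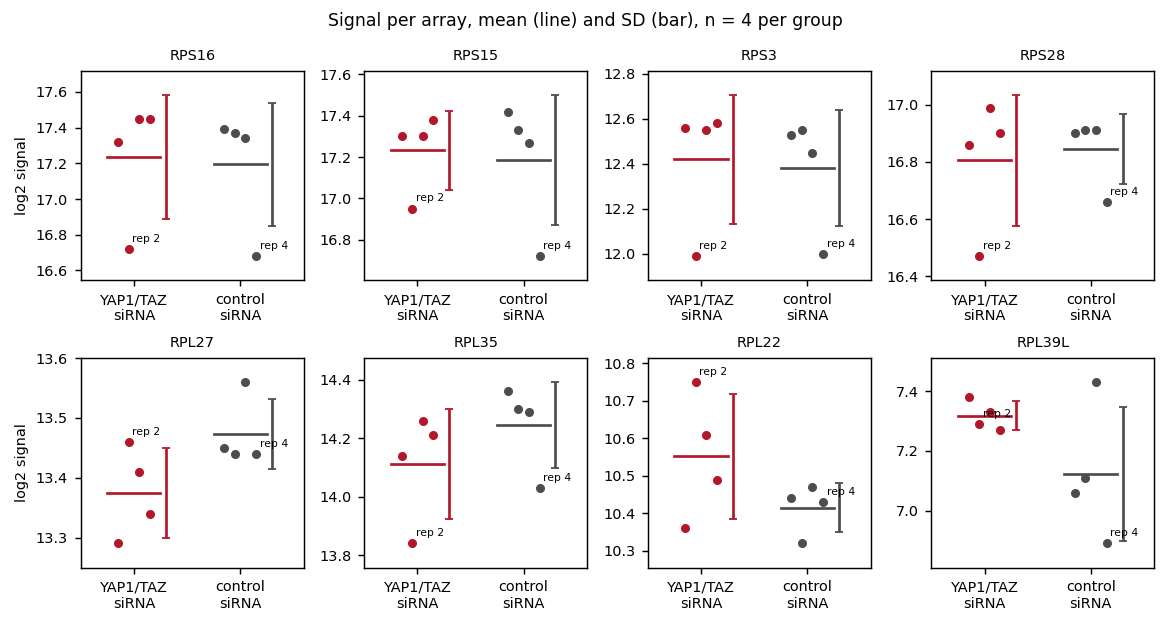
Log2 signal per array (y axis) of 8 members in the YAP1/TAZ siRNA group (left, red) and the control siRNA group (right, grey), with the mean as a line and the SD as a bar, n = 4 each; axes do not start at 0. In the upper row YAP1/TAZ siRNA replicate 2 and control siRNA replicate 4 lie below the other arrays of their groups, while in RPL22 replicate 2 is the highest of its group.

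Some of the paralogues are known from particular tissues, and RPS27L as a gene induced by p53. RPL39L, a paralogue of RPL39 known from testis and some tumours, had the largest difference of the 54. It read 7.38, 7.29, 7.33 and 7.27 in the YAP1/TAZ siRNA cultures, against 7.06, 7.11, 7.43 and 6.89 in the control siRNA cultures. The YAP1/TAZ siRNA arrays lay close together, while control siRNA replicate 3 lay above all 4 of them and the other controls below. The difference was 0.20 (SE 0.10, 95% interval −0.041 to 0.43, limma adjusted p = 0.580). It was 0.30 without control siRNA replicate 3 and 0.12 without control siRNA replicate 4. RPS27L read 5.64, 5.95, 5.83 and 5.61 after YAP1/TAZ siRNA and 5.84, 5.76, 5.88 and 5.95 after control siRNA, and its difference was −0.10 (SE 0.085, adjusted p = 0.777). RPL7L1, an assembly factor of the large subunit, differed by 0.075 (SE 0.060, adjusted p = 0.757). RPL22L1 and RPL26L1 each differed by −0.030 (SE 0.057). RPL3L, a protein of skeletal and heart muscle, and RPL10L, a testis protein, had mean signals of 4.43 and 3.38, below the median of the genes tested, and differed by −0.0075 and −0.010. Differences of RPL3L and RPL10L changed sign after quantile normalization.

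The subunits were set against each other next. The median difference was 0.020 over the 33 large subunit members and 0.038 over the 21 small subunit members. The large minus small value was −0.018. It was 0.0078 after quantile normalization and 0.015 when clusters named for alternative haplotypes were left out, a change to RPS18 alone among the members, so it too has no settled sign. In each array the median deviation of the large subunit members from their gene means was set against that of the small subunit members. Large minus small was −0.011, 0.053, −0.034 and −0.028 in the 4 YAP1/TAZ siRNA arrays, against −0.024, −0.020, −0.048 and 0.066 in the 4 control siRNA arrays. The mean was −0.0050 ± 0.039 after YAP1/TAZ siRNA and −0.0063 ± 0.050 after control siRNA (SD, n = 4 each), so the group means differed by less than the spread between arrays. The positive values were YAP1/TAZ siRNA replicate 2 and control siRNA replicate 4.

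Those arrays were often the lowest of their groups. The range of a member over the 8 arrays had a median of 0.31, and over the other 6 arrays a median of 0.17, while over all genes these medians were 0.36 and 0.26. Control siRNA replicate 4 was the lowest control array in 36 of 54 members (66.7%), against 30.7% of all genes. YAP1/TAZ siRNA replicate 2 was the lowest array of its group in 36 of 54 members (66.7%), against 33.4% of all genes, and 29 members were lowest in both. The small subunit showed this in 16 of 21 members for each array, the large subunit in 20 of 33 for each. The drop was not particular to the members, as some lists described further below showed it too. Control siRNA replicate 4 was the lowest control in 24 of 35 ribosome biogenesis factors. It was so in 14 of 20 mTOR, MYC and TOP mRNA regulators and 13 of 22 genes of RNA polymerase I and III transcription. It was so in 5 of 13 p53 target genes and 0 of 8 fibroblast markers. The median member lay 0.19 below the mean of the other controls in control siRNA replicate 4 and 0.12 below the mean of the other arrays of its group in YAP1/TAZ siRNA replicate 2, where over all genes the median was 0.010 and 0.013 above.

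RPS16 had the largest such drop. It read 17.32, 16.72, 17.45 and 17.45 in the YAP1/TAZ siRNA cultures, against 17.39, 17.37, 17.34 and 16.68 in the control siRNA cultures, so that 1 array of each group lay more than 0.5 below the rest. RPS3, a protein of the mRNA entry site that also acts in DNA repair, read 12.56, 11.99, 12.55 and 12.58 after YAP1/TAZ siRNA and 12.53, 12.55, 12.45 and 12.00 after control siRNA. RPS15 read 17.30, 16.95, 17.30 and 17.38 after YAP1/TAZ siRNA and 17.42, 17.33, 17.27 and 16.72 after control siRNA. The pattern was alike in these members of the small subunit. Without the pair RPS16 differed by 0.040 (SE 0.056) where it differed by 0.040 (SE 0.21) with all 8 arrays, and RPS3 by 0.053 (SE 0.050) where it differed by 0.038 (SE 0.17). RPS15 differed by −0.013 without the pair and by 0.048 with all arrays. RPS16, RPS3 and RPS15 were picked for this description after their values were seen.

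Not all members shared the drop. In YAP1/TAZ siRNA replicate 2, 10 members were the highest of their group, RPL22, RPL37 and RPL41 among them, with 0.26, 0.17 and 0.23 above the mean of the other arrays of that group. Across the 54 members the displacement in 1 array tracked that in the other (Spearman's rho 0.69). Brighter members were displaced further down, with rho −0.34 between mean level and displacement in control siRNA replicate 4 and −0.23 in YAP1/TAZ siRNA replicate 2. Without the paralogues these were −0.22 and −0.12 over 47 members, and over all 22411 genes they were −0.35 and −0.48. These are descriptions across genes that share the same arrays. The top signal among the genes tested was 19.78 for YAP1/TAZ siRNA replicate 2 and 19.73 for control siRNA replicate 4, while the other arrays topped out between 19.90 and 19.93. The medians of these arrays, 5.09 and 5.07, were the highest of the 8. After quantile normalization the median deviation of members was −0.077 in control siRNA replicate 4, where it was −0.15 as deposited, and −0.024 in YAP1/TAZ siRNA replicate 2, where it was −0.085. What part array signal distribution or RNA quality has in this was not tested.

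**Figure D3:**
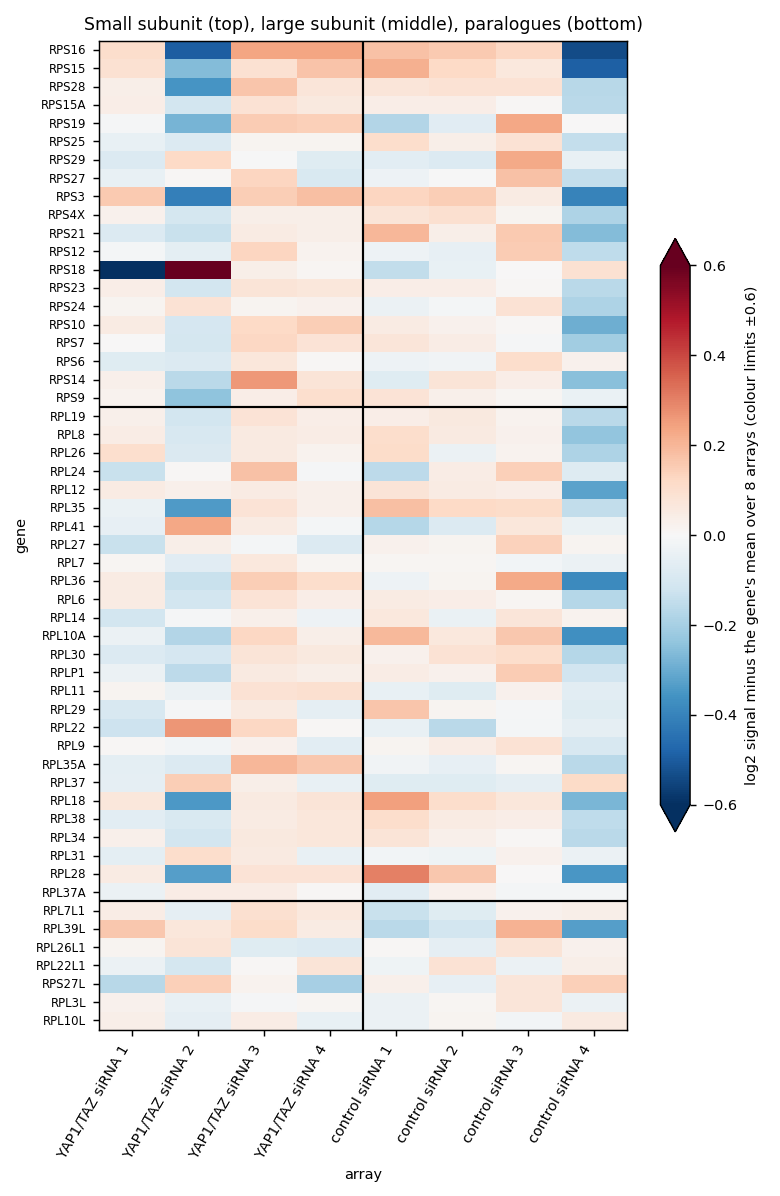
Log2 signal of each member minus its mean over the 8 arrays (colour, limits ±0.6), with arrays as columns, YAP1/TAZ siRNA left of the black line and control siRNA right of it; genes run from bright to dim within the small subunit, the large subunit and the paralogues. YAP1/TAZ siRNA 2 and control siRNA 4 are the mostly blue columns, and the largest departures are those of RPS18.

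**Figure D4:**
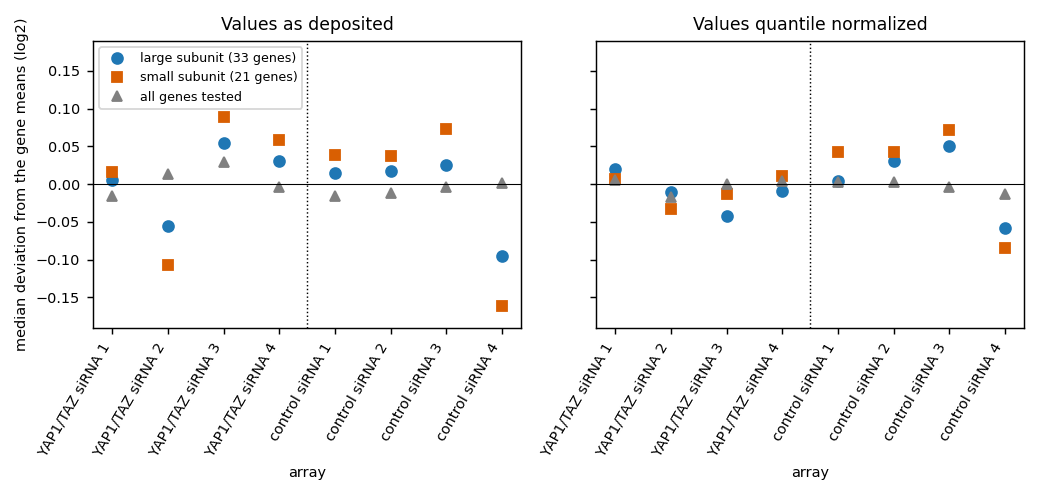
Median deviation from the gene means (log2, y axis) in each array (x axis, YAP1/TAZ siRNA left of the dotted line) for the large subunit, the small subunit and all genes, as deposited (left) and after quantile normalization (right). As deposited, YAP1/TAZ siRNA 2 and control siRNA 4 lie at −0.11 and −0.16 for the small subunit, and both are nearer 0 after normalization.

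Without both arrays the result was the same in kind. By limma 0 of 54 members passed, adjusted or unadjusted, where 0.839% of all genes passed the adjusted and 16.6% the unadjusted threshold. The smallest adjusted p of a member was 0.305, for RPL27 (−0.14, SE 0.059). RPL7L1 followed with 0.13 (SE 0.057, adjusted p = 0.317) and RPL35 with −0.11 (SE 0.054, adjusted p = 0.350). The 95% interval lay within −0.5 to 0.5 in 53 of 54 members, the exception being RPS18. The median difference was 0.0067 over members and 0.0067 over all genes.

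RPS18 and RPL30 were the members with several transcript clusters. RPS18 had 7, of which 5 held identical values, and the one with the highest mean, named for an alternative haplotype of chromosome 6, was the most variable of all members. It read 9.81, 11.11, 10.47 and 10.45 in the YAP1/TAZ siRNA cultures, against 10.29, 10.39, 10.44 and 10.53 in the control siRNA cultures, a difference of 0.048 (SE 0.23). The cluster of the main chromosome 6 sequence read 10.02, 10.27, 10.23 and 10.22 after YAP1/TAZ siRNA and 10.22, 10.22, 10.24 and 10.19 after control siRNA, with a difference of −0.033 (SE 0.063, 95% interval −0.18 to 0.11, adjusted p = 0.923). The interval of RPS18 was thus narrower in that cluster than in the chosen one. The last of the 7, also named for an alternative haplotype, read 9.68, 9.97, 8.78 and 9.76 after YAP1/TAZ siRNA. After control siRNA it read 9.85, 9.91, 9.90 and 9.92, and its difference was −0.35. The second cluster of RPL30 read 8.47, 8.53, 8.83 and 8.93 in the YAP1/TAZ siRNA cultures, against 8.28, 8.55, 8.91 and 9.54 in the control siRNA cultures. Its difference was −0.13. The chosen cluster of RPL30 spanned 10.68 to 10.96 over the 8 arrays and differed by −0.025.

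The symbol rule reaches part of the ribosome. Of 79 ribosomal protein genes listed from general knowledge, 47 were members. A further 21 had a symbol only in clusters that carry several symbols, 10 had no cluster under the listed symbol, and FAU was measured but has a symbol outside the rule. FAU, which encodes RPS30 fused to a ubiquitin-like protein, differed by −0.010 (SE 0.15).

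Genes around the ribosome were read from fixed lists, beside all genes tested, of which 0.214% passed, 10.3% had an unadjusted p under 0.05 and 52.8% lay above 0. Of 35 measured ribosome biogenesis factors 0 passed over all genes by limma, 2 had an unadjusted p under 0.05 and the median difference was 0.078, with 29 above 0. YAP1/TAZ siRNA replicate 2 was the lowest of its group in 20 of these 35 genes and control siRNA replicate 4 in 24, and their part in the median was not tested beyond leaving them out. The median was 0.030 without control siRNA replicate 4 (23 above 0), 0.090 without both arrays (30 above 0) and 0.038 after quantile normalization (22 above 0). In these settings 0, 8 (22.9%) and 3 (8.57%) of the 35 had an unadjusted limma p under 0.05. Of all genes 9.39%, 16.6% and 11.3% did. NOLC1, a nucleolar phosphoprotein, differed by 0.18 (SE 0.070, adjusted p = 0.402) and DDX10, a nucleolar helicase, by 0.21 (SE 0.083, adjusted p = 0.421). The corresponding median over the ribosomal proteins was 0.020. Of 22 genes of RNA polymerase I and III transcription 0 passed and 2 (9.09%) had an unadjusted p under 0.05. Their median was 0.041, and −0.013 after quantile normalization. RRN3, the factor that brings RNA polymerase I to ribosomal DNA, read 9.47 ± 0.14 after YAP1/TAZ siRNA and 9.72 ± 0.043 after control siRNA (SD, n = 4 each), a difference of −0.25 (SE 0.075, limma adjusted p = 0.263). GTF3A, the factor that brings RNA polymerase III to the 5S genes, differed by 0.22 (SE 0.075, adjusted p = 0.338).

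A list for TOP mRNAs outside the ribosome held translation factors and other genes, such as NAP1L1 and HNRNPA1. Whether each carries the motif was not checked here. The list had a median of 0.068 over 16 measured, with 14 above 0, and 0 passed by limma. YAP1/TAZ siRNA replicate 2 and control siRNA replicate 4 were each the lowest of their group in 11 of the 16. The median was −0.0021 without control siRNA replicate 4 (7 above 0), 0.030 without both arrays (13 above 0) and 0.026 after quantile normalization (11 above 0). At an unadjusted p under 0.05 there was 1, EIF2S3, a subunit of initiation factor eIF2, with −0.16 (SE 0.068, adjusted p = 0.459). EIF4B, an initiation factor and S6 kinase substrate, differed by 0.20 (SE 0.092, adjusted p = 0.517). Of 20 genes of mTOR, MYC and TOP mRNA control 0 passed, 2 (10.0%) had an unadjusted p under 0.05 and the median was 0.020, against −0.016 after quantile normalization. LARP4, a poly(A)-binding protein that stabilises ribosomal protein mRNAs, differed by 0.28 (SE 0.096, adjusted p = 0.342), and EIF4EBP2, an inhibitor of the cap-binding protein, by 0.26 (SE 0.10, adjusted p = 0.423). Of 13 measured p53 target genes 0 passed, 2 (15.4%) had an unadjusted p under 0.05 and the median was −0.058. SESN1 and SESN2, stress proteins that restrain mTOR complex 1, differed by 0.16 (SE 0.065, adjusted p = 0.444) and −0.42 (SE 0.18, adjusted p = 0.475).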

How the data were processed

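RNA was labelled with biotin by the WT PLUS reagents, per the labels' protocols. The authors deposited log2 signals per transcript cluster. The submitters' processing notes name Transcriptome Analysis Console. For its version, summary algorithm, normalization and genome build the answer is the same: not given in the sources used here. The log2 scale was read from the range, 2.27 to 19.93. Of 67528 clusters 23781 had 1 symbol, and these gave 22411 genes. Groups came from the sample titles. Differences were fitted with limma 3.58.1 in R 4.3.3 over all genes (6 residual degrees of freedom, no covariate, no filter), with Benjamini-Hochberg adjustment and a threshold of 0.05. The step was run on simulated data with independent noise for each gene. Those data lack the displacement that arrays share here, so the run cannot show how the fit behaves on these arrays. The number of arrays limits precision. Members and lists were chosen with earlier results of these data known.

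Named genes were YAP1 and WWTR1, the 6 highest and 6 lowest moderated t of the large subunit, 4 and 4 of the small subunit, the paralogues, RPL5, RPL11, RPLP0, RPLP1, RPLP2 and RPS6 (RPL5, RPLP0 and RPLP2 are not members), and of each other list the members that passed or the 2 with the smallest p. Further members named with the arrays that stood apart, with several clusters or at the ends of a range were chosen after their values were seen. Alternatives were quantile normalization, a block for the replicate number, median centring, leaving out dim genes, averaging the clusters of a gene, robust limma-trend, array weights, leaving out arrays, leaving out paralogues and, chosen after seeing the data, leaving out haplotype clusters and the settings given for the other lists.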

Additional observations from a re-analysis of the deposited data

Results flagged for a closer look

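In groups of 4 arrays, 15 of 108 sets of member values held an array far from the other 3. Chance gives about 5% for independent sets, but these sets share the same 8 arrays. The share over all genes is not given here, so the count says nothing particular to the members. Of the 15, 11 were low values of the arrays that stood apart, and 2 of the other 4 were high values of control siRNA replicate 3. Low in YAP1/TAZ siRNA replicate 2 were RPL18 (8.54, against 8.94 to 8.96 in the other 3), RPL28 (7.23, against 7.61 to 7.64), RPL8 (15.65, against 15.79 to 15.80), RPS3 (11.99, against 12.55 to 12.58) and RPS4X (11.70, against 11.83 to 11.84). Low in control siRNA replicate 4 were RPL12 (14.03, against 14.39 to 14.43), RPS10 (8.24, against 8.54 to 8.58), RPS15A (15.93, against 16.10 to 16.13), RPS16 (16.68, against 17.34 to 17.39), RPS23 (9.53, against 9.70 to 9.73) and RPS28 (16.66, against 16.90 to 16.91).

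RPS24 was high in YAP1/TAZ siRNA replicate 2 (9.69, against 9.62 to 9.63), and RPL37 was high in control siRNA replicate 4 (9.18, against 8.99 to 9.01). RPL27 (13.56, against 13.44 to 13.45) and RPS29 (13.75, against 13.44 to 13.48) were high in control siRNA replicate 3. YAP1 was lowest in YAP1/TAZ siRNA replicate 1 (6.27, against 6.40 to 6.42).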

How the results depend on the processing

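By limma 0 members passed the adjusted threshold in the main fit and in each of 18 alternatives. At an unadjusted p under 0.05 there were RPL27 and RPLP1 after quantile normalization, RPL11, RPL27 and RPL7L1 with array quality weights, RPL39L without control siRNA replicate 3, RPS21 without control siRNA replicate 4, RPL22 without YAP1/TAZ siRNA replicate 1, and 0 in the others. Of all genes 11.3% passed that threshold after quantile normalization, 18.4% with weights and 8.75%, 9.39% and 9.65% in those last 3 settings, so the members' shares were below the background. The median difference of members ran from −0.027 to 0.035 and large minus small from −0.040 to 0.015, each within the spread of the per-array values (SD 0.079 and 0.045). Between 45 members (of 47, without paralogues) and 54 members (with array quality weights) had an interval within −0.5 to 0.5. Over 406 alternative values of the 24 named members 12 changed sign, in RPL10L, RPL3L, RPS7, RPL22L1 and RPL18, with none called. Leaving out 1 array moved the difference by over 1.5 times, or turned its sign, in 22 of the 24, the others being RPL11 and RPL27.

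A members' count of 0 says nothing of stability. The count over all genes was 48, and 3 with the replicate number as a block, 148 after quantile normalization, 25 with arrays centred on their median, 82 with dim genes left out, 559 with array quality weights, 188 without control siRNA replicate 4 and YAP1/TAZ siRNA replicate 2, and 12 to 166 with 1 array left out. The cause was not tested. WWTR1 differed by −0.65 to −0.58 with 1 array left out (limma adjusted p 0.0146 to 0.0515) and by −0.62 with the replicate block (adjusted p = 0.147), and the block changed no call of a member. Deviations of same-numbered arrays correlated at 0.37, −0.47, 0.016 and −0.39 for numbers 1 to 4. YAP1/TAZ siRNA replicate 2 and control siRNA replicate 4, which stood apart, correlated at 0.61. The correlations therefore cannot decide whether equal numbers mark pairs. The labels name no pairing, and the main fit used no block. The number of arrays limits what these differences can resolve.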
